A study of Homo sapiens with 22 samples.

Results

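FOXA2 binding was compared between NCI-H660 cells treated with vehicle and NCI-H660 cells treated with ORY-1001 at 10 µM for 4 h. The vehicle list held 11886 FOXA2 regions and the ORY-1001 list held 11469, which together are 23355 of the 871377 regions in the 22 region lists of the series. A vehicle region that overlapped an ORY-1001 region by at least 1 bp is called kept, a vehicle region without such overlap is called lost, and an ORY-1001 region that overlapped no vehicle region is called new. The established line NCI-H660 has the neuroendocrine form of prostate cancer, and ORY-1001 is an inhibitor of the histone demethylase LSD1. The vehicle was DMSO per the study's methods. ChIP-seq recovers the DNA that a protein is bound to with an antibody and sequences it, and each list gives the places where that DNA was enriched. The same line was also profiled for accessible chromatin by ATAC-seq in vehicle cells, for the histone mark H3K4me2 in vehicle cells, and for JUN in cells that received a non-targeting siRNA (siNC) or one that knocks down FOXA2 (siFOXA2). No accessibility, H3K4me2 or JUN list of ORY-1001-treated cells was used here, so these layers describe chromatin before the inhibitor. There was 1 list per arm, the files give no read depth, and no test between the arms was possible. All intervals on shares are 95% Wilson intervals and cover counting error over regions only.

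FOXA2 is a forkhead transcription factor of the endoderm, known as a pioneer factor because it can bind its site in closed chromatin. It is also expressed in neuroendocrine prostate tumours. LSD1, the product of KDM1A, removes methyl groups from lysine 4 of histone H3 within the CoREST repressor complex, and JUN is a subunit of the AP-1 transcription factor. The comparison asks where FOXA2 stays on the genome of the neuroendocrine line when LSD1 is blocked for a short time.

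The identity of the line was checked with promoters. All 11 neuroendocrine marker genes, among them CHGA, SYP and INSM1, had an accessible region and an H3K4me2 region within 1 kb of a start site. The basal keratin genes KRT5 and KRT14 and the androgen-driven genes KLK2 and KLK3 had neither. However, 6 of the 8 luminal markers and 2 of the 4 basal markers, TP63 and KRT15, also had both, so an accessible promoter separated these programmes only in part.

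The sequences below were taken from the hg19-equivalent GRCh37 genome, plus strand, as 200 bases about the region centre, to show a kept and a lost region of high score. Capitals mark the forkhead motif, the 7-letter word TNTTTNN with A or G at the first and second N and C or T at the third, read on either strand. The kept window, chosen after its values were seen, belongs to the highest-scoring region near NKX2-2 (chr20:21499127-21499326). The lost window, chr20:653373-653572, belongs to the highest-scoring lost region, in an intron of SCRT2, a neuronal zinc-finger repressor, where the annotation also places the readthrough gene ENSG00000270299.
Kept, NKX2-2: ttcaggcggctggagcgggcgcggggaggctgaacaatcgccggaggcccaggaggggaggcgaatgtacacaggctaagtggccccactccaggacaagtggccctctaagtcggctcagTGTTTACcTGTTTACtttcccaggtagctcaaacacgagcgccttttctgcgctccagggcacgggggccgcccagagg
Lost, SCRT2: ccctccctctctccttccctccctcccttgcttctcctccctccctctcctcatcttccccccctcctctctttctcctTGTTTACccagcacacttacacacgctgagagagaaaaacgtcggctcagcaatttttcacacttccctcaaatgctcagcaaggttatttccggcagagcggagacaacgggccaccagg
The kept NKX2-2 window held 2 forkhead words, which stood next to each other with 1 base between. The lost SCRT2 window held 1 forkhead word. In both windows the word was TGTTTAC, the form that the core of the FOXA motif is usually written in.

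Most of the FOXA2 regions of vehicle cells were found again after 4 h of ORY-1001. The study reports, from heatmaps of FOXA2 signal, a global disruption of FOXA2 binding by LSD1 inhibition in PC3 and NCI-H660. Overlap of called regions is another measure, in which a region of weakened signal still counts as kept. Of the 11886 vehicle regions, 8131 were kept, which is 68.4% (67.6 to 69.2), and 3755 were lost. Of the 11469 ORY-1001 regions, 3332 were new, which is 29.1% (28.2 to 29.9). The lists thus differed little in length, with a log2 ratio of region numbers, ORY-1001 to vehicle, of -0.05 (-0.09 to -0.01, counting error only). Lost regions were rarely shifted ones, since 51 of the 3755 had an ORY-1001 region within 500 bp. In PC3, another prostate cancer line, treated the same way, 36.8% (36.2 to 37.4) of the vehicle FOXA2 regions were found under ORY-1001. The PC3 lists were of unlike length, with 24038 vehicle and 13732 ORY-1001 regions, which limits the share that could be found. No test of the difference between the lines was possible with 1 list per arm. The lowest score, defined below, was 13 in all 4 lists, but the settings of the peak caller and the depths are unknown.

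The share of regions kept followed their score. The score is the whole number in the fifth column of the lists. It was taken to be the −log10 q-value of the peak caller multiplied by 10, and it ran from 13 upwards in both lists. From the lowest to the highest decile of vehicle score the kept share was 21.4%, 41.1%, 48.0%, 57.9%, 65.6%, 77.1%, 83.8%, 92.0%, 97.4% and 99.8%. In the highest decile, which starts at a score of 436, 1186 regions were kept and 2 were lost. The ORY-1001 list gave the same picture from its own side, with 16.7% of the lowest and 99.1% of the highest decile found in vehicle. The median score was 183 for kept, 73 for lost and 58 for new regions. In PC3, with its shorter ORY-1001 list, the kept share was lower in every decile of its own vehicle list. It ran from 11.1% in the lowest to 83.7% in the highest.

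**Figure D1:**
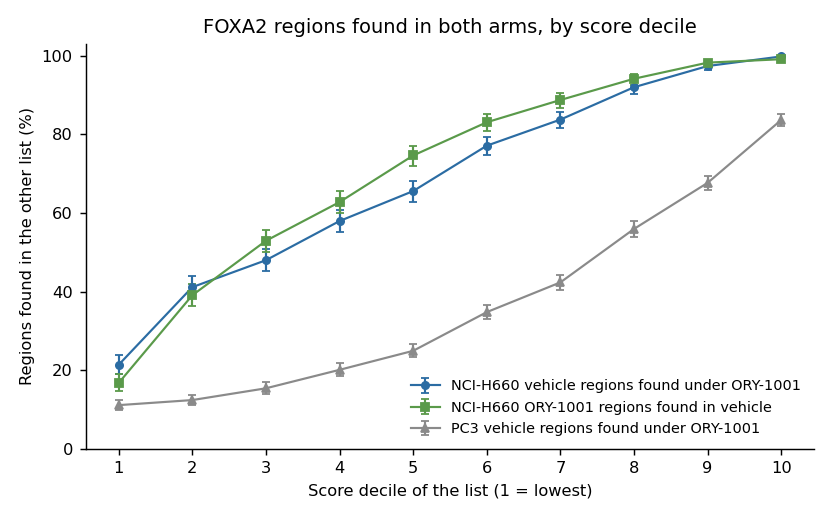
Share of regions found in the other arm (percent, y axis) by score decile of the list (x axis), with 95% Wilson bars, for the vehicle and ORY-1001 lists of NCI-H660 and for vehicle PC3 regions. Both NCI-H660 curves climb from 21.4% and 16.7% in decile 1 to 99.8% and 99.1% in decile 10, while the PC3 curve ends at 83.7%.

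Among kept regions the scores of the arms followed each other. The median log2 ratio of ORY-1001 to vehicle score was -0.03, the 10th percentile was -0.82 and the 90th was 0.79. This median was not the same in all kept regions. It was 0.31 in the 1428 that lay in recurring sequence, as defined below, and -0.08 in the 6703 others. It was 0.39 in the 535 that were not accessible in vehicle cells and -0.04 in the 7596 accessible ones. Of the 8131 kept regions 4185 scored lower and 3898 higher under ORY-1001, and 513 were at least 2-fold lower against 453 at least 2-fold higher. Spearman's rho of the scores across kept regions was 0.84, a description over regions that share the same pair of libraries. Scores depend on depth, which is unknown, so a shift common to all regions cannot be read from them.

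**Figure D2:**
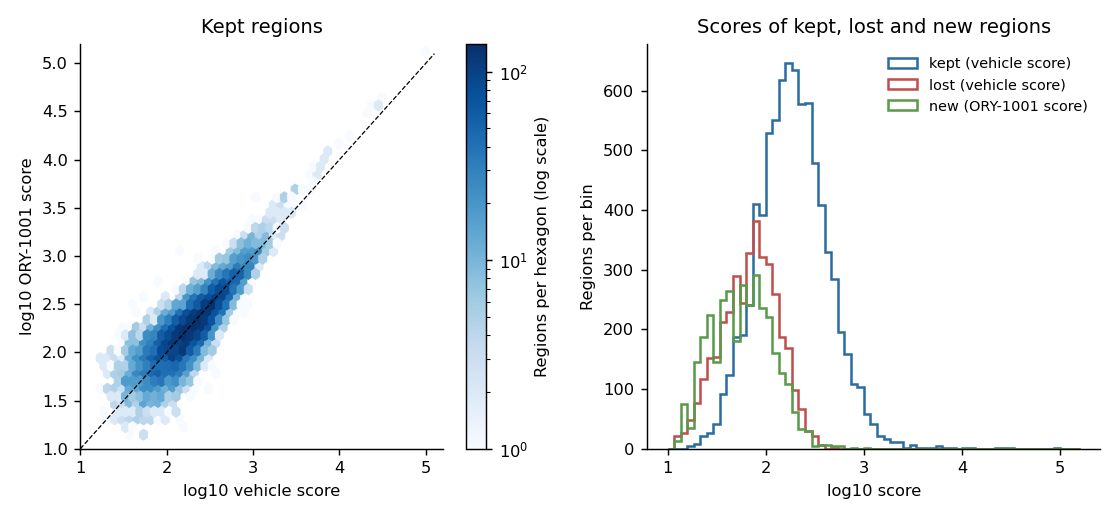
Left, vehicle score (x axis) against ORY-1001 score (y axis) of the 8131 kept regions on log10 axes, with the dashed line at equality and darker hexagons holding more regions. Right, numbers of kept, lost and new regions per score bin, where lost regions (median 73) and new regions (median 58) fill the low end below kept regions (median 183).

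The regions that stood highest in vehicle cells stayed. The 10 highest-scoring kept regions, leaving out 396 vehicle regions in places enriched in at least 17 of the 22 lists, had vehicle scores of 2053 to 4627 and ORY-1001 scores of 1788 to 4983. All 10 were accessible and all 10 held a forkhead motif. Of these, 5 lay on chromosome 8, near CIBAR1, RIPK2, XKR9, CLVS1 and COL14A1, and the others were near or in ACVR1C, NKX2-2, FAM83B, FNDC3B and SCIMP. Of the 10, only the ACVR1C region lay in recurring sequence, as defined below. Its sampled stretches occur a median of 1050 times in the genome. The NKX2-2 region, 4525 bases from the start of this homeobox regulator of neuroendocrine and pancreatic endocrine fate, scored 2260 in vehicle and 2888 under ORY-1001. A neighbouring NKX2-2 region was kept at 267 and 233, and another, 20.6 kb from the start site and overlapped by JUN, scored 108 and was lost.

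Lost regions of high score were few. The SCRT2 region scored 520 in vehicle cells and had no counterpart under ORY-1001. It lay 2971 bases from the nearest start site, which was assigned to ENSG00000270299. A region near CWH43 followed with 514, but it lay within 2 Mb of the centromere of chromosome 4 and in sequence that recurs in the genome. The next 8 scored 335 to 372 and were nearest to IBTK, GSTA5, SUCLG1, NENF, GAK, RTP4, GRIA2 and POLE4. GRIA2 encodes an AMPA-type glutamate receptor subunit, and GAK is a kinase of clathrin uncoating. Of these 10 lost regions, 9 held a forkhead motif and 10 were accessible in vehicle cells, while 6 lay in recurring sequence.

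New regions of high score had another make-up. The 10 highest scored 465 to 1117, and 2 of them, at PTHLH and NRSN1, held a forkhead motif. Of the 10, 3 were accessible in vehicle cells, and 8 lay in recurring sequence. The highest, of score 1117, lay 31.7 kb from the start of PAM, which encodes a peptide-amidating enzyme, in sequence whose sampled stretches occur a median of 2984 times in the genome. The others were nearest to ANKRD30BL, PTHLH, FZD1, NRSN1, AC026369.1, TENT5A, GRIA3, CEP70 and EVI5. The region nearest to PTHLH, which encodes parathyroid hormone-related protein, scored 619 at 30.8 kb from the start and was overlapped by H3K4me2 and JUN. NRSN1, a neuronal vesicle protein gene, had the highest-scoring new region that was accessible and held a forkhead motif, with a score of 549, and it lay in recurring sequence.

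Within kept regions some moved far in rank. A region in an intron of COL23A1 went from a score of 54 in vehicle to 424 under ORY-1001, from percentile 14.8 to 89.1 of its list. Regions near DPT (43 and 301), PRICKLE1 (44 and 252), HECW1 (80 and 529) and CWH43 (37 and 198) were the next in that direction. In the other direction, a region in an intron of PLSCR1, with an AP-1 motif and JUN, had 293 in vehicle and 46 under ORY-1001. Regions near HNMT (361 and 63) and PGM2 (235 and 50) and in introns of BMPR1B (327 and 73), a BMP receptor gene, and PHACTR3 (193 and 35) followed. The regions that fell overlapped 3 to 5 lists, and all except the PLSCR1 region held a forkhead motif. Of those that rose, the COL23A1 region overlapped 5 lists, and the DPT, PRICKLE1, HECW1 and CWH43 regions overlapped 16, 13, 12 and 14. Among the risen regions only the DPT region held a forkhead motif, and the CWH43 region lay within 2 Mb of a centromere gap.

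Recurring sequence moved with several of these results and was therefore measured, after the values above had been seen. From each region 5 stretches of 31 bases were counted in the whole genome on both strands, and a region was called repeated where at least 3 of the 5 occurred at least 2 times. Of kept regions 17.6% (16.8 to 18.4) were repeated, of lost regions 13.3% (12.3 to 14.5) and of new regions 25.8% (24.3 to 27.3). Among regions that were not accessible the shares were 72.3% for kept, 33.4% for lost and 49.1% for new. At like score a repeated vehicle region was kept more often, by 6.64 percentage points (4.68 to 8.61), and a repeated ORY-1001 region was found in vehicle less often, with a difference of -9.59 points (-11.42 to -7.77). How the authors treated reads that map to several places was not stated, so the differences at like score for the main layers are given below with and without repeated regions.

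Kept regions were the ones that carried the marks of active chromatin most often. They were accessible in 93.4%, against 85.5% of lost and 69.9% of new regions. H3K4me2 covered 66.9% of kept, 53.5% of lost and 45.9% of new regions. JUN under siNC was found at 42.5% of kept regions, at 23.04% of lost and at 23.6% of new ones. A forkhead motif within 100 bp of the centre was present in 77.7% of kept, 71.5% of lost and 58.5% of new regions, against 32.9%, 33.2% and 34.9% of windows 2 kb away and 35.0% of all 99959 accessible NCI-H660 regions. The strict word TGTTTAC was in 34.8%, 29.3% and 22.9%, against 2.98% to 3.17% of windows 2 kb away. The AP-1 word TGANTCA with C or G in the middle was uncommon in all, with 6.15%, 6.60% and 4.71%. New regions thus included the largest share without the forkhead word, and among the 1004 new regions that were not accessible the motif share was 32.7% (29.8 to 35.6), against 38.4% of windows 2 kb away. The motif was held by 194 of the 511 of these that were not repeated (33.9% to 42.2%) and by 134 of the 493 that were (23.4% to 31.3%). Among the 2328 accessible new regions the share was 69.6% (67.7 to 71.5). Without repeated regions the shares of kept, lost and new regions were 97.8%, 88.8% and 79.3% for accessibility, 64.1%, 53.01% and 48.02% for H3K4me2, and 38.4%, 23.2% and 22.9% for JUN.

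**Figure D3:**
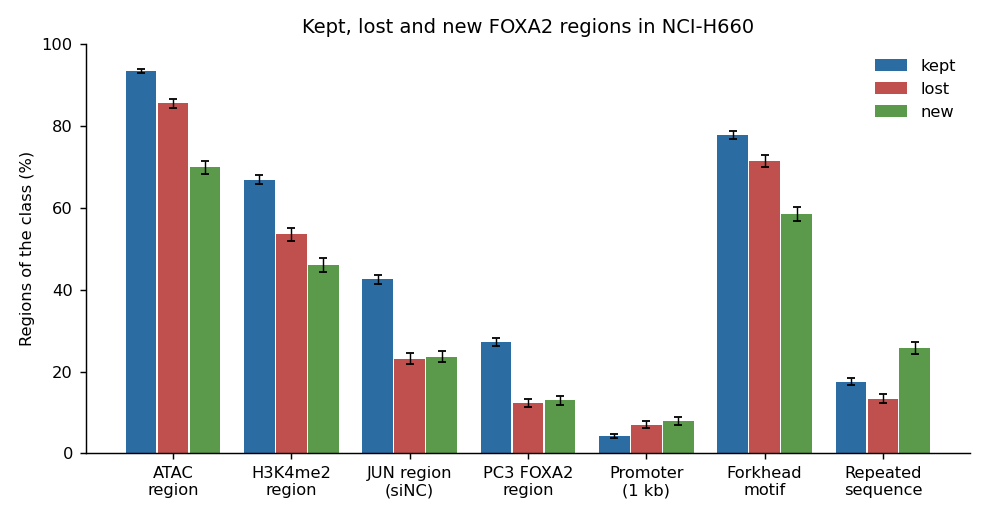
Percent of kept (8131), lost (3755) and new (3332) FOXA2 regions that overlapped each NCI-H660 list or the PC3 FOXA2 list, lay at a promoter, held a forkhead motif or were repeated sequence, with 95% Wilson bars. Kept regions stand highest for ATAC (93.4%), H3K4me2 (66.9%) and JUN (42.5%), and new regions stand highest for repeated sequence (25.8%).

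Since strong regions were kept and were also more often marked, each layer was compared at like score. The difference in kept share between regions with and without a layer was taken within each of the 10 vehicle score deciles and averaged, with an interval from counting error. Regions with JUN were kept in 79.98% (78.8 to 81.1) and regions without in 61.8% (60.7 to 62.9), a plain gap of 18.2 percentage points, and at like score 10.3 points (8.84 to 11.8). The JUN regions had the higher kept share in 10 of 10 deciles, for example 33.0% against 17.2% in the lowest and 76.5% against 60.5% in decile 5. Without repeated regions the difference was 7.68 points (6.01 to 9.35), and in distal regions alone it was 10.6 (9.07 to 12.1). JUN under siFOXA2, a longer list of 59452 regions, gave 0.42 points (-1.51 to 2.35). In the ORY-1001 list regions with JUN were likewise found in vehicle more often, by 7.20 points (5.74 to 8.67), and by 6.14 (4.52 to 7.77) without repeated regions. JUN under siFOXA2 went the other way in that list, with -4.94 points (-6.74 to -3.15).

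For accessibility and H3K4me2 the result depended on the setting. Accessible regions were kept in 70.3% and others in 49.5%, but at like score the difference was -1.23 points (-3.85 to 1.39). Without repeated regions it was 9.75 points (5.81 to 13.7), and with deciles of score split further by region width it was -4.21 points (-6.39 to -2.02), so the direction depended on the setting. From the side of the ORY-1001 list, accessible regions were found in vehicle more often by 17.8 points (15.1 to 20.5) at like score, and by 22.2 points (17.2 to 27.3) without repeated regions. H3K4me2 regions were kept in 73.0% against 60.7%, and at like score the difference was 2.58 points (1.14 to 4.02), or 2.24 (0.69 to 3.78) without repeated regions. It was 1.03 points (-0.42 to 2.48) with an overlap of at least 50%, 0.49 (-1.10 to 2.08) with the higher-scoring H3K4me2 regions only and 0.78 (-0.63 to 2.19) with score and width together, and these intervals include 0. Combining the layers, 2656 of 3270 regions with ATAC, H3K4me2 and JUN together were kept, 81.2% (79.9 to 82.5), and their median vehicle score was 189.5. Regions with none of these layers were kept in 218 of 659 cases, 33.1% (29.6 to 36.8), at a median score of 51. Regions with ATAC alone were kept in 63.1% (median score 116) and with ATAC and H3K4me2 in 65.6%. The kept share was highest in the 160 regions with H3K4me2 and JUN but no accessibility, of which 148 were kept, 92.5% (87.3 to 95.7), at a median score of 135. JUN alone gave 64.96% of 117 regions (median score 56) and H3K4me2 alone 64.6% of 144 (86.5). These combinations were not split by repeated sequence, which made up 72.3% of the kept regions that were not accessible. Of the 1003 ORY-1001 regions with none of the layers 784 were new, 78.2%, whereas 501 of the 3097 with all of them were new, 16.2%.

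Promoter regions were kept less often. Promoters, within 1 kb of the start of a protein-coding transcript, held 607 vehicle regions, of which 57.0% (53.0 to 60.9) were kept, against 69.0% of the other 11279. At like score the difference was -9.38 points (-12.85 to -5.90), and without repeated regions -9.14 (-12.7 to -5.54). Promoter regions had the lower kept share in 9 of 10 deciles. By class of annotation the kept share was 69.7% in intergenic sequence (5997 regions), 68.2% in introns (4941), 70.0% in coding exons (207) and 65.7% in UTRs (134). Promoters made up 4.26% of kept, 6.95% of lost and 7.92% of new regions. The highest-scoring lost promoter regions were 49 bases from the start of TFF3, the secreted trefoil factor of mucous epithelia (score 316), and at TMEM127 (306, within 2 Mb of a centromere gap), ITGB5, an integrin subunit (304), and ST7 (294). New promoter regions were led by TNRC18 (333), SFTPB, a pulmonary surfactant protein gene (234), and PHF3 (219). Kept ones included PAX6, a homeobox regulator of neural and endocrine development, with 1501 in vehicle and 1728 under ORY-1001, and the surfactant gene SFTPA1, with 1191 and 1005. These promoter regions were named after their values were seen.

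The forkhead motif behaved differently in the lists. Vehicle regions with the motif were kept in 70.2% against 62.9% without, yet at like score they were kept less often, by -3.67 points (-5.30 to -2.05), and the strict word TGTTTAC gave -6.22 (-7.85 to -4.60). Without repeated regions the forkhead difference was 0.42 (-1.47 to 2.32). ORY-1001 regions with the motif were found in vehicle more often at like score, by 5.84 points (4.23 to 7.45) over all regions and by 5.23 (3.35 to 7.12) without repeated ones. In each decile of vehicle score the lost regions held TGTTTAC more often than the kept ones, for instance 49.3% against 33.9% in decile 6. Decile 10 held only 2 lost regions. Over all scores and without repeated regions, 35.5% of kept and 27.1% of lost regions held TGTTTAC. A difference at like score without repeated regions was not computed for this word.

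**Figure D4:**
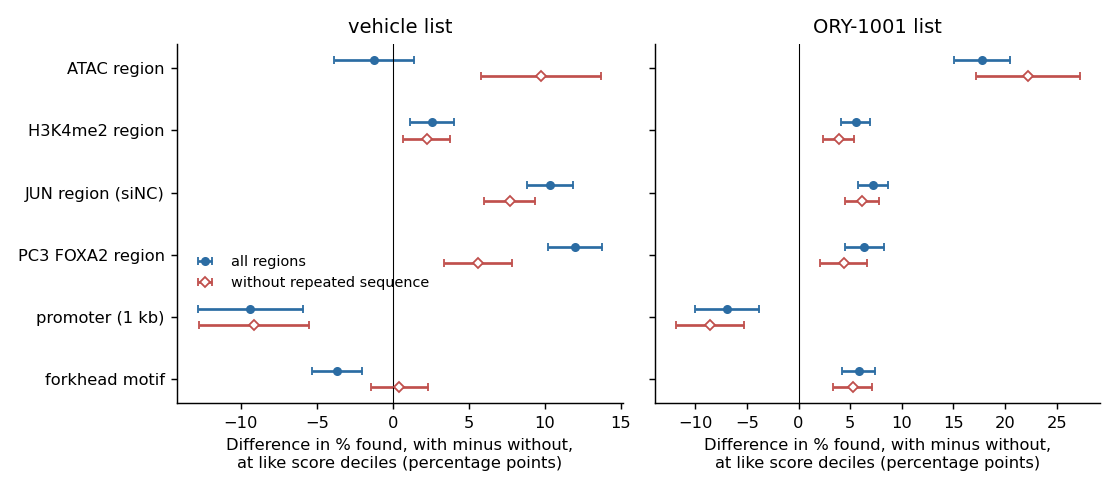
Difference in the share found in the other arm, regions with a layer minus regions without, averaged over 10 score deciles (percentage points, x axis), for the vehicle list (left) and the ORY-1001 list (right), with 95% counting intervals. Filled points use all regions and open points leave out repeated ones. JUN lies right of 0 and promoters lie left of 0 in both panels, while ATAC and the forkhead motif move in the left panel from -1.23 to 9.75 and from -3.67 to 0.42.

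FOXA2 regions that NCI-H660 shared with PC3 were kept more often than the others. Of the 2678 vehicle regions that overlapped a vehicle PC3 FOXA2 region, 82.9% (81.4 to 84.2) were kept, against 64.2% (63.2 to 65.2) of the other 9208. At like score the difference was 11.98 points (10.2 to 13.8), without repeated regions 5.58 (3.34 to 7.81). Of the same 2678 places 73.7% (72.0 to 75.3) were also kept in PC3 under ORY-1001, against 36.8% of the PC3 list as a whole. This contrast was not taken at like score. Places enriched in at least 17 of the 22 lists were included in these values. Without them 2284 places remained, with 79.9% (78.2 to 81.5) kept in NCI-H660 and 69.2% (67.3 to 71.1) in PC3. The NCI-H660 difference at like score was then 10.4 points (8.52 to 12.4). Of all 2678 places 1702 were kept in both lines, 517 only in NCI-H660, 272 only in PC3 and 187 in neither. Where PC3 kept the place NCI-H660 kept it in 86.2% of cases and otherwise in 73.4%, a difference of 6.18 points (3.36 to 9.01) at like score. These counts and this difference were not computed without the widely enriched places or without repeated regions.

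Genes were assigned by the nearest start site of a protein-coding transcript. Of 5182 genes with a vehicle region, 2553 had all of theirs kept, 1461 had some kept and some lost, and 1168, or 22.5%, had none kept. Of the 1168 genes, 1040 had a single vehicle region, and 227 had a new region elsewhere. Among the 832 genes with at least 4 vehicle regions, 3 had none kept and 120 had all kept. The 3 were SDK2, a synaptic adhesion gene, CACNA2D1, a calcium channel subunit gene, and DICER1, the microRNA-processing nuclease. The 4 SDK2 regions had vehicle scores of 127, 232, 57 and 89, and a new region of 121 lay 72.8 kb from its start. The CACNA2D1 regions scored 107, 75, 35 and 54, and the DICER1 regions 66, 33, 26 and 95, so most of these were of low score. Genes with all regions kept included EYA1 (11 of 11), a coactivator of organ development, the corepressor TLE1 (10 of 10), the guidance receptor PLXNA2 (8 of 8), KALRN (8 of 8), DCT (8 of 8) and ATP10B (8 of 8). SHCBP1 (21 of 21), ANKRD30BL (14 of 14), LINC00999 (12 of 12) and OR4C46 (9 of 9) also did, but their regions were found on average in 11.7 to 20.0 of the 22 lists.

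The genes with most vehicle regions were largely next to centromeres. CWH43 had 46 regions (41 kept), RP11-685N3.1 had 41 (36), ZNF33B 32 (31), SPIN4 21 (19) and SHCBP1 21 (21), all of them within 2 Mb of a centromere gap, and a gene on chromosome Y had 26 (25). Away from centromeres CELF4, a neuronal RNA-binding protein gene, had 22 regions of which 15 were kept, LRMDA had 20 (12), TENM4, a teneurin of neuronal wiring, had 19 (12) and TBL1XR1 had 18 (13). The most lost regions were at PTPRM, a receptor-type tyrosine phosphatase gene, where 9 of 13 were lost. A further 8 each were lost at LRMDA (of 20), MMP16 (18), CSMD3 (18), AUTS2 (18), RALYL (17) and MAGI2 (17), and 7 at CELF4, TENM4 and RASEF (13). At PTPRM the 4 kept regions had vehicle scores of 209, 309, 544 and 187 and ORY-1001 scores of 211, 243, 629 and 154. Its lost regions scored 26 to 245, and 5 new ones scored 28 to 164.

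New regions gathered at genes of chromosome 8 and near centromeres. CSMD3 had 26 new regions, RALYL 15, KCNV1 and SNX16 11 each, and PEX2 and TRPS1 9 each, all on chromosome 8. CWH43 had 17, TPTE 15, RP11-685N3.1 11 and SPIN4 9, all near centromeres. Of the 26 new CSMD3 regions 8 were accessible in vehicle cells, and of the 15 at RALYL 3 were. In all 2249 genes had a new region, and 764 of them had no vehicle region.

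Neuroendocrine transcription factors kept FOXA2 at a share near that of all regions. In the list of 33 such genes 17 had a vehicle region, and 49 of their 74 regions were kept, 66.2%, against 68.4% of all vehicle regions and 67.9% for regions of the same deciles. There were 22 new regions, 16 of them accessible. POU3F2, the BRN2 gene of neuroendocrine differentiation, had 10 regions 178 to 743 kb upstream of its start, of which 9 were kept. Its highest scored 728 in vehicle and 259 under ORY-1001, the next 601 and 758, and the single lost one 59. ST18, a neuronal zinc-finger gene, kept 7 of 8, with 1333, 907, 791 and 655 in vehicle and 1115, 544, 547 and 569 under ORY-1001 at the highest 4. SOX4 kept 6 of 10, and its lost regions scored 28 to 100. RUNX1T1, a corepressor gene, kept 2 of 8, and none of the 8 scored above 118. INSM1, a zinc-finger gene of neuroendocrine differentiation, had 1 region, of score 41, which was lost.

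Among 32 neuroendocrine secretory and synaptic genes 15 had a vehicle region, and 36 of 57 regions were kept, 63.2%, against 66.0% at like deciles. The presynaptic adhesion gene NRXN3 kept 9 of 14, with 1094 in vehicle and 1390 under ORY-1001 at its highest, and its 5 lost regions scored 39 to 198. SYT4, a synaptotagmin gene, kept 4 of 6. At RIMS2, an organiser of the presynaptic active zone, 2 of 6 were kept and 6 were new, and the highest region scored 900 and 617.

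Axon guidance genes had the most regions of the lists and the share of 76.2% kept (68.8 to 82.3), 115 of 151, against 67.8% at like deciles. The ephrin receptor gene EPHA7 kept 13 of 15 and had 7 new regions. Its highest scored 590 in vehicle and 560 under ORY-1001, and its lost ones 99 and 26. DCC, a netrin receptor gene, kept 13 of 14, with 783 and 755 in vehicle and 539 and 638 under ORY-1001 at the highest pair, and lost one of score 49. ROBO1, a receptor for Slit ligands, kept 9 of 13, and EPHA6 kept 6 of 10.

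**Figure D5:**
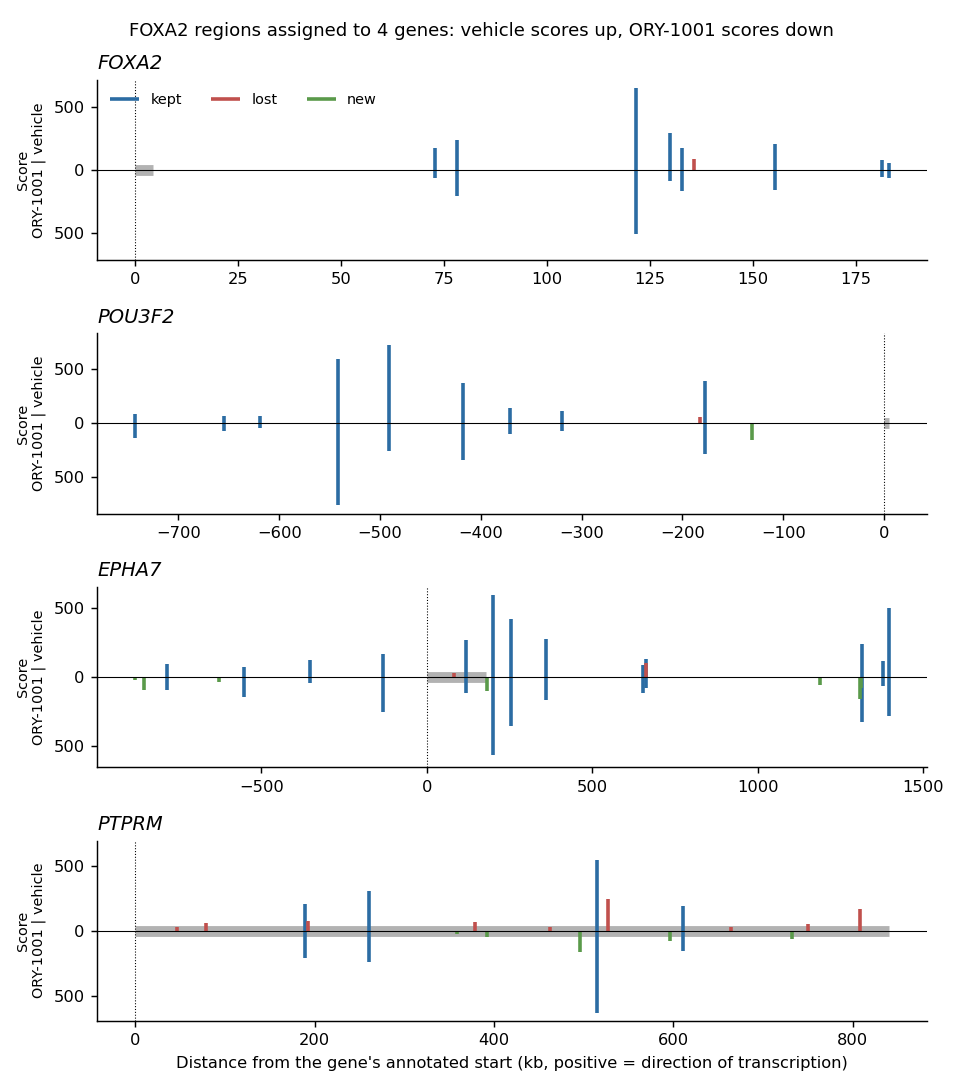
FOXA2 regions assigned to FOXA2, POU3F2, EPHA7 and PTPRM by distance from the annotated gene start (kb, x axis), with the vehicle score upwards and the ORY-1001 score downwards and the gene body as a grey bar. FOXA2, POU3F2 and EPHA7 keep 8 of 9, 9 of 10 and 13 of 15 regions, whereas PTPRM keeps 4 of 13 and its lost regions are mostly the short bars.

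FOXA2 itself, counted with the endoderm and hepatic genes, kept 8 of 9 regions and had no new one. All 9 lay downstream of the gene, 71.9 to 182 kb from its start. The highest scored 649 in vehicle and 508 under ORY-1001, others went from 295 to 91 and from 169 to 66, and the lost region scored 87. The other endoderm genes were led by HNF4G, a nuclear receptor gene, with 8 of 12 kept, GATA6, whose regions all lay within 2 Mb of a centromere gap, with 4 of 6 and GRHL2 with 5 of 6, where the highest pair scored 1267 and 1205 in vehicle and 1190 and 1052 under ORY-1001. Over the 28 genes 34 of 51 regions were kept, 66.7%.

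The AP-1 subunit genes kept 22 of 24 regions, 91.7% (74.2 to 97.7), against 75.1% at like deciles. JUN kept 5 of 5, with vehicle scores of 178, 36, 359, 270 and 108 and ORY-1001 scores of 136, 90, 403, 176 and 89. MAF kept 7 of 7. ATF3 kept its single region, and the single region at FOS, of score 71, was lost. Notch pathway genes kept 25 of 38, 65.8%, with JAG1, a Notch ligand gene, at 6 of 9, the target repressor HES1 at 5 of 7, HEY2 at 3 of 4 and RBPJ, the DNA-binding partner of Notch, at 3 of 4, and had 2 new regions.

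For the genes of the inhibited complex itself the counts were small. LSD1 and CoREST genes kept 7 of 11, with KDM1A at 1 of 1 (vehicle score 44), ZNF217 at 3 of 3 and GSE1 at 2 of 3, while the single regions at HDAC1 and HDAC2 were lost. Luminal prostate genes kept 11 of 15, among them NDRG1 3 of 3, ACP3 2 of 3 and KRT8 2 of 2. Basal and mesenchymal genes kept 27 of 38, 71.1%, with CDH2, the N-cadherin gene, at 8 of 10, ZEB2 at 5 of 6, ZEB1 at 3 of 5 and ITGA6 at 3 of 4. Of 9 genes that the study tested by ChIP-qPCR, 2 had a vehicle region, with TP63 keeping 3 of 4 and PTHLH 3 of 3. This list was chosen by the study on related samples, at least in part in PC3. The regions were not matched to the sites that the study tested. Ribosomal protein genes, taken as housekeeping genes, kept 10 of 15, 66.7%, with RPS24 at 7 of 9, RPLP1 at 3 of 5 and RPS9 at 0 of 1. None of these list shares was tested against the 68.4% of all vehicle regions.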

How the data were processed

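The authors aligned reads to hg19 with BWA 0.7.17-r1188 and called enriched regions with MACS2 2.1.4, and SAMtools 1.9 and FastQC 0.11.9 are also named in the submitters' processing notes. The control library, the MACS2 settings, pooling and the treatment of reads with several places were not given in the sources used here. The labels name a Millipore antibody against FOXA2, whereas the study's methods name one from Abcam for ChIP and list Millipore for immunoblotting. The study also reports that several FOXA2 antibodies were tried and gave similar results. The authors deposited each list with a whole-number score, taken to be the −log10 q-value multiplied by 10 because its minimum was 13, which corresponds to a q-value of 0.05. The lists hold no read numbers, so the depth is unknown.

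Groups were taken from the labels. Overlaps, annotation (GENCODE 44 for GRCh37) and motifs (100 bp on either side of the centre, both strands) were computed in Python 3.11.15 with numpy 2.4.6, pandas 2.3.3 and pysam 0.24.0, and the code was tested on simulated data. Nearest genes were protein-coding. Differences at like score were weighted by the number of regions in a decile. Named regions were the 10 highest-scoring of each class outside places in at least 17 lists, the 5 kept regions with the largest rank moves each way, the 10 genes with most vehicle, lost and new regions, genes with at least 4 regions and all or none kept, and the 4 genes with most regions of each gene list. Members and lists were chosen with earlier results of these data known. With 1 list per arm no p-value was computed, and 13 alternative settings were run. A few genes and sequences that these rules pick are not reported here.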

Additional observations from a re-analysis of the deposited data

How the results depend on the processing

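Of the 45 values recomputed under 9 settings chosen at the start 28 moved by less than their counting interval and 17 by more. Among the 45, 3 changed sign, which were the accessibility difference in 2 settings and the forkhead difference in 1. Where both regions had to overlap by 50% or more, the kept share was 66.4%, the new share 31.2%, and the differences at like score were 1.03 points for H3K4me2, 8.30 for JUN and -1.03 for the forkhead motif. A score of at least 30 gave 70.1% kept and 25.3% new, and equal numbers of the highest-scoring regions gave 70.5% kept. Without places in at least 17 of the 22 lists the shares were 67.3% and 30.04%. Plain differences without score deciles were 20.8 points for accessibility, 12.4 for H3K4me2, 18.2 for JUN and 7.31 for the forkhead motif, and those for accessibility and the forkhead motif changed sign from -1.23 and -3.67. The upper part of each list by score gave 0.49 for H3K4me2 and 0.22 (-1.45 to 1.89) for accessibility, which changed sign, the word TGTTTAC -6.22 and promoters within 5 kb -5.37. Of the alternatives added after seeing the data, leaving out repeated regions gave 67.3% kept, 26.9% new, and differences of 9.75 for accessibility, 7.68 for JUN and 0.42 for the forkhead motif. Here the accessibility difference also changed sign, with an interval of 5.81 to 13.7, as did the forkhead difference, with -1.47 to 2.32. Deciles of score combined with 3 width classes gave -4.21 for accessibility, 0.78 for H3K4me2, 7.94 for JUN and -1.96 for the forkhead motif. The causes were not tested. No paired analysis was possible because each arm had 1 list, and no replicate could be left out. The depth of the libraries is unknown, so an enrichment just under the threshold in one arm cannot be told apart from an absent one.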

Other observations

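New regions on chromosome 8 are described by counts chosen after their values were seen. Of the 1012 ORY-1001 regions on chromosome 8, 360 were new, 35.6% (32.7 to 38.6), while 68.6% of its 947 vehicle regions were kept. The share of new regions was higher on chromosome 21, with 43 of 93, 46.2% (36.5 to 56.3). Chromosome 8 held 198 of the 1004 new regions that were not accessible in vehicle cells, 19.7%, and 155 of the 511 such regions outside recurring sequence, 30.3% (26.5 to 34.5). It held 7.97% of all vehicle FOXA2 regions and 5.86% of accessible NCI-H660 regions. Of the ORY-1001 regions outside recurring sequence that were not accessible, 9 of 164 on chromosome 8 were found in vehicle, 5.49%, against 139 of 495 on the other chromosomes, 28.1%. In the vehicle list 10 of 74 such regions on chromosome 8 were found under ORY-1001, 13.5%, against 138 of 437 elsewhere, 31.6%.

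JUN regions of siNC cells were found under siFOXA2 at similar shares whether the FOXA2 region beneath was kept or lost under ORY-1001. The share was 42.4% (40.8 to 44.1) of 3415 JUN regions at kept FOXA2 regions and 42.3% (39.0 to 45.6) of 859 at lost ones. At like JUN score the difference was -2.50 points (-6.11 to 1.1). It was 47.6% of 764 at new FOXA2 regions and 49.8% of 13363 JUN regions away from all of them. The siFOXA2 list was the longer one, with 59452 JUN regions of median score 39 against 18401 of median score 78 under siNC. The study, using signal intensity, reports a strong fall of JUN binding in NCI-H660 after FOXA2 silencing. The shares here count overlap of called regions and do not measure that signal.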
